A study of Homo sapiens with 32 samples.

Results

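The broad peaks of N6-methyladenosine (m6A) are the widest stretches of RNA that were called as enriched by the m6A antibody. Members were chosen by their measured width: a peak was taken as broad at 1500 bp or more, and broad peaks of the 4 peak lists that overlapped by 1 bp or more on one strand were joined into loci. The rule found 4066 broad peaks among 180114 peaks, and these gave 1552 broad loci, against 66409 loci when all peaks were merged in the same way. The loci had a median length of 1962 bp, reached 17732 bp, and together spanned 3522 kb. Widths are therefore given as descriptions, with no test of whether these loci are wider than others.

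The libraries were made from RNA bound to chromatin in A375, an established human melanoma cell line, after ribosomal RNA had been depleted and methylated fragments enriched with an antibody kit. The control group comprised 2 libraries of A375 cells with the hairpin shControl (genotype WT), and the knockdown group 2 libraries of A375 cells with shMETTL3, a hairpin RNA against the catalytic subunit of the m6A methyltransferase. The series holds 32 samples in 16 groups, of which the input, dCas13b-FTO and HEK293T libraries and a further set of control and METTL3 knockdown libraries are not analysed here. The sources used here do not give how many hairpin sequences or clones stand behind a group. The labels do not say that replicates came from separate cultures, and p-values then measure only the spread between these libraries, which may be technical.

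m6A is written on nascent RNA by a complex in which METTL3 is the catalytic subunit, METTL14 its partner, and RBM15 and RBM15B are RNA-binding adaptors. In messenger RNA it is known to gather around stop codons, in last exons and in unusually long internal exons, where the exon junction complexes that keep methylation away from splice sites are sparse. The mark is found mostly in the sequence DRACH, of which GGACT, in DNA letters, is a frequent form. RNA held on chromatin also contains introns, unspliced noncoding transcripts and transcripts from outside genes, so wide methylated stretches need not be exons.

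The sequence of whole loci was not at hand, so RefSeq gene-start windows (GRCh38.p14) lying wholly inside a broad locus on the same strand were searched. Only 2.62% of the broad loci placed along a gene had their summit in its first 500 bp, so these windows do not represent the loci. Of 34943 gene-start windows, which run from 250 bases before to 50 after a gene's start, 22 lay inside. The motif GGACT was present on the sense strand of 8 of these 22 windows (36.4%), against 25.2% of all windows, and on either strand of 12 (54.5%), against 44.1%. A match is a description of the letters in the window and no proof of a methylated base. Motif offsets from the annotated gene start were −132 and −78 bases in SLMAP, −172 in C6orf141, −243 in TRPC4 and 22 in SNX33. Sites with a negative offset lie before the annotated start. The sites below are from 4 genes whose loci differed in width between the groups in different ways, printed 5′ to 3′ with the motif in capitals.
SLMAP, chr3:57757112-57757140, plus strand: cactccgggcgaGGACTggcggtggctgc
SLMAP, chr3:57757166-57757194, plus strand: ttcggcccaaaaGGACTttcctggccgcg
C6orf141, chr6:49550484-49550512, plus strand: aaaagtaagaggGGACTgaatcagcgaat
TRPC4, chr13:37869999-37870022, minus strand: tcttcccGGACTatccctttccag
SNX33, chr15:75649017-75649045, plus strand: gagtgcattcttGGACTgccttgtgagca

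The locus at SLMAP, a tail-anchored membrane protein gene, crossed the width limit only in the knockdown lists, with widest peaks of 1470 and 1461 bp in control replicates 1 and 2 and 1568 and 1639 bp in knockdown replicates 1 and 2. At C6orf141 the order was the opposite, with 1866 and 1864 bp in control and 1462 and 1463 bp in knockdown, and the printed site lay under a peak in 2 control lists and 0 knockdown lists. TRPC4, a cation channel gene, had 647 and 748 bp in control and 1628 and 1627 bp in knockdown. SNX33, a sorting nexin gene, had 2082 and 2173 bp in control and 2119 and 1037 bp in knockdown. The SLMAP, TRPC4 and SNX33 sites were under a peak in all 4 lists, whatever the width of the peak. The widths of the first 3 genes did not overlap between groups, 2 of them higher in knockdown, while the SNX33 widths overlapped. The 4 genes were picked to show such differences, so these counts are no result about the windows or the broad loci.

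The precursors of 3 microRNAs also lay inside broad loci on the same strand, and the 5p arm, or the only listed mature form, is printed with the seed, bases 2 to 8, in capitals.
hsa-miR-671-5p, host CHPF2, precursor chr7:151238421-151238538, plus strand: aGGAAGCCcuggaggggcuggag
hsa-miR-4292, host RABL6, precursor chr9:136830957-136831023, plus strand: cCCCUGGGccggccuugg
hsa-miR-6501-5p, host SON, precursor chr21:33550662-33550728, plus strand: aGUUGCCAgggcugccuuuggu

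RABL6 encodes a RAB-like GTPase, and its locus had the highest fold of all broad loci in knockdown replicate 1. The authors' fold enrichment at the summit was 11.0 and 6.29 in control replicates 1 and 2 and 16.8 and 11.4 in knockdown replicates 1 and 2. Its widest peaks measured 2445, 2481, 2639 and 2490 bp in the same order of libraries. The CHPF2 locus measured 2143, 2140, 1241 and 2475 bp, and the SON locus 1759, 1708, 1613 and 1693 bp. No seed was shared among the printed sequences.

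The number of broad peaks was similar in the groups. Control replicates 1 and 2 held 938 and 1039 broad peaks, and knockdown replicates 1 and 2 held 1060 and 1029, so the ranges overlapped. The mean was 988.5 ± 71.4 in control and 1044.5 ± 21.9 in knockdown (SD, n = 2 each), a difference of 56 peaks (two-sided exact permutation p = 0.667). With 2 libraries against 2, an exact permutation test cannot go below p = 0.33.

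As a share of each list, broad peaks were 2.07% of 45345 and 2.18% of 47692 peaks in the control lists. In the knockdown lists they were 2.403% of 44108 and 2.395% of 42969 peaks. Both knockdown shares lay above both control shares, with a mean difference of 0.275 percentage points (exact permutation p = 0.33, the smallest possible). With lists cut to equal length the difference was 0.133 points, at 2000 bp 0.0385 points, and 0.294 points when the fold had to reach 4 (exact permutation p = 0.667 in each), so the separation of the shares did not hold there. These few peaks held 12.4%, 12.8%, 13.1% and 13.0% of all bases under peaks in control replicates 1 and 2 and knockdown replicates 1 and 2.

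**Figure D1:**
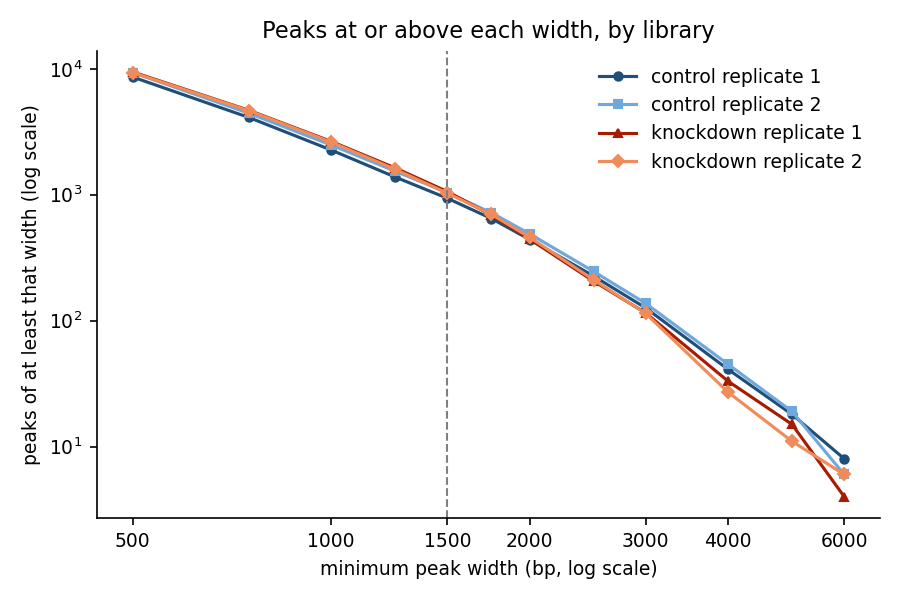
Number of peaks (vertical axis, log scale) at or above each minimum width in bp (horizontal axis, log scale), 1 line per library; the dashed line is the limit of 1500 bp. Control replicate 1 is lowest at 1500 bp with 938 peaks, while from 3000 bp upward to 5000 bp both control lines lie above both knockdown lines.

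The order of the groups changed along the width scale. At 1000 bp or more, there were 2266 and 2482 peaks in control and 2651 and 2618 in knockdown. At 3000 bp or more there were 126 and 137 in control and 115 and 114 in knockdown, a mean difference of −17 peaks (knockdown minus control, exact permutation p = 0.33). Neither group overlapped the other at either of these widths, and the sign was opposite. The median broad peak was 1957.5 and 1963 bp wide in control and 1907 and 1933 bp in knockdown, against medians over all peaks of 256 and 259 bp in control and 267 and 268 bp in knockdown.

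Broad peaks had higher folds than peaks in general within each list, where a fold is the authors' value at the summit. The median fold of broad peaks was 6.01 and 5.51 in control and 6.42 and 6.51 in knockdown, against 3.84, 3.65, 3.92 and 3.93 over all peaks of the same lists. Fold and width come from the same reads and are not independent measures. How input or spike-in RNA entered the fold is not given, so folds of different libraries may not share a scale. Where they are set side by side below, the values are descriptions. The summit lay at a median of 50.8%, 50.2%, 48.3% and 49.9% of the width from the 5′ edge of broad peaks, close to the middle, against 54.9%, 54.9%, 54.2% and 54.0% over all peaks.

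Of the 1552 loci, 540 (34.8%, 95% Wilson interval 32.5% to 37.2%) held a broad peak in all 4 lists, 204 in 3, 409 in 2 and 399 in 1. Both control lists but no knockdown list held a broad peak at 167 loci (10.8%), and the reverse at 189 loci (12.2%). The intervals treat loci as independent and cover counting error only.

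**Figure D2:**
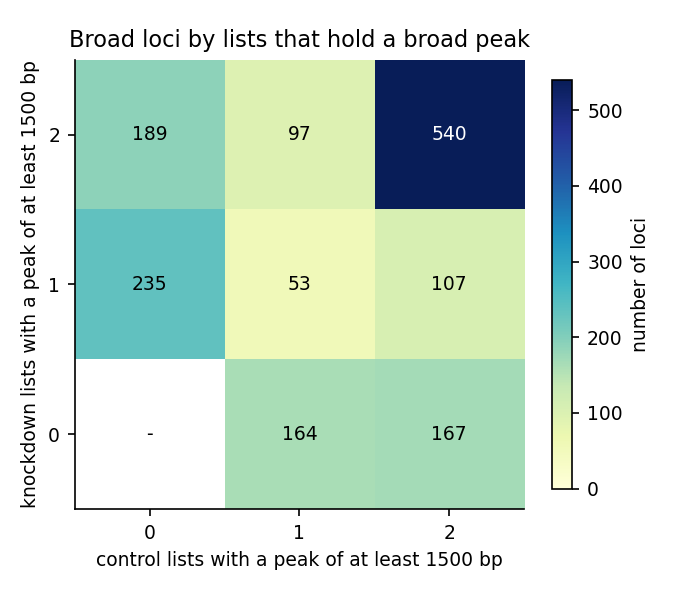
Number of broad loci by how many control lists (horizontal axis) and how many knockdown lists (vertical axis) held a peak of at least 1500 bp there. The cell for all 4 lists holds 540 loci, the control corner 167 and the knockdown corner 189, and 235 loci were broad in a single knockdown list against 164 in a single control list.

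Loci that were broad in 1 group alone had more separate peaks per list, on average, in the other group. Loci broad in both control lists alone had a mean of 1.16 peaks per control list and 2.34 per knockdown list, and the median ratio of bases under peaks, knockdown over control, was 0.681. At the 189 loci of the reverse kind the means were 2.09 peaks per control list and 1.10 per knockdown list, with a median ratio of 1.40. The 540 loci broad in every list had 1.24 and 1.31 peaks and a ratio of 1.00. These ratios follow in part from how the classes were formed and are descriptions.

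A peak of any width was present in all 4 lists at 1524 of the 1552 broad loci (98.2%, 97.4% to 98.7%), where 35.7% of all merged loci had one. Both control lists but no knockdown list had a peak at 7 of 1541 loci (0.454%), against a background of 22.6%. The reverse was found at 6 of 1535 (0.391%), against 18.9%. Joining peaks only at a reciprocal overlap of 50% lowered the first share to 60.4% and raised the others to 9.26% and 10.4%. A wide locus meets a peak of another list more easily, so the shares over all loci are a background and not a matched comparison.

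Broad peaks of one list were followed into the lists that had not chosen them. Of the bases of a broad peak of control replicate 1, a median of 99.6% lay under peaks of control replicate 2, 97.2% under peaks of knockdown replicate 1 and 97.0% under peaks of knockdown replicate 2. For each of the 4 choosing lists the other list of the same group covered more than either list of the other group. It exceeded the mean of those 2 lists by 2.54 and 2.96 points for the control lists and by 3.37 and 3.92 points for the knockdown lists. A broad peak was also broad in the other list of its group in 79.4% to 88.4% of cases, and in a list of the other group in 62.4% to 70.1%. Each of the 4 values is a median over peaks of 1 list, and peaks are not replicates.

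In total, peaks covered 3045 and 3119 kb of the broad loci in control and 3106 and 3100.4 kb in knockdown. That is 86.5% and 88.6% of their length in control and 88.2% and 88.0% in knockdown. The mean difference was 21.2 kb (exact permutation p = 1), and the ranges overlapped. It was 195.2 kb when the fold had to reach 4, 34.9 kb with lists of equal length and −27.2 kb at 2000 bp (exact permutation p = 0.33 in each). Without knockdown replicate 1 or 2 it was −36.1 or −28.3 kb. It was 9.88 or 110.6 kb without control replicate 1 or 2. For these values the loci were chosen anew from the lists left, which tilts them to the group with more lists. The sign of these values is therefore no test of stability, but sign and size also changed with the settings above.

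Bases under peaks separated the groups at many single loci, in both directions. Among the 1524 loci with a peak in every list, both control lists covered more bases than both knockdown lists at 486 (31.9%, background 27.7% of loci with a peak in every list). Both knockdown lists covered more at 587 (38.5%, background 29.8%). The lowest value of the higher group was at least 2-fold the highest of the other at 53 loci with control higher (3.48%, background 1.87%) and at 58 with knockdown higher (3.81%, background 2.47%). A locus enters through the list in which its peak is widest, so covered length is not independent of the rule, and nothing particular to broad loci is read from these shares.

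None of the 540 loci broad in all 4 lists was 2-fold apart in either direction, and their ratios of mean covered bases ran from 0.657 to 1.47. A locus of this class has at least 1500 bases under peaks in every list by definition, and the median length of the class was 2352 bp. Most of these loci could therefore not be 2-fold apart, and the absence of such loci is no sign of stability. The 53 loci with control higher comprised 27 in single protein-coding genes, 8 in single lncRNA genes and 12 outside gene spans. The 58 with knockdown higher comprised 46 in single protein-coding genes, 0 in single lncRNA genes and 7 outside gene spans. The remaining loci in each set were compatible with several genes or lay on the strand opposite a gene. Among all broad loci these classes held 1158, 105 and 169 loci in the same order. Some of the 8 lncRNA loci shared a gene, SLC38A4-AS1 or LOC105378798, and are not separate places. No such counts by class over all merged loci are at hand. Whether the direction depends on the class was not tested, so these counts are descriptions.

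**Figure D3:**
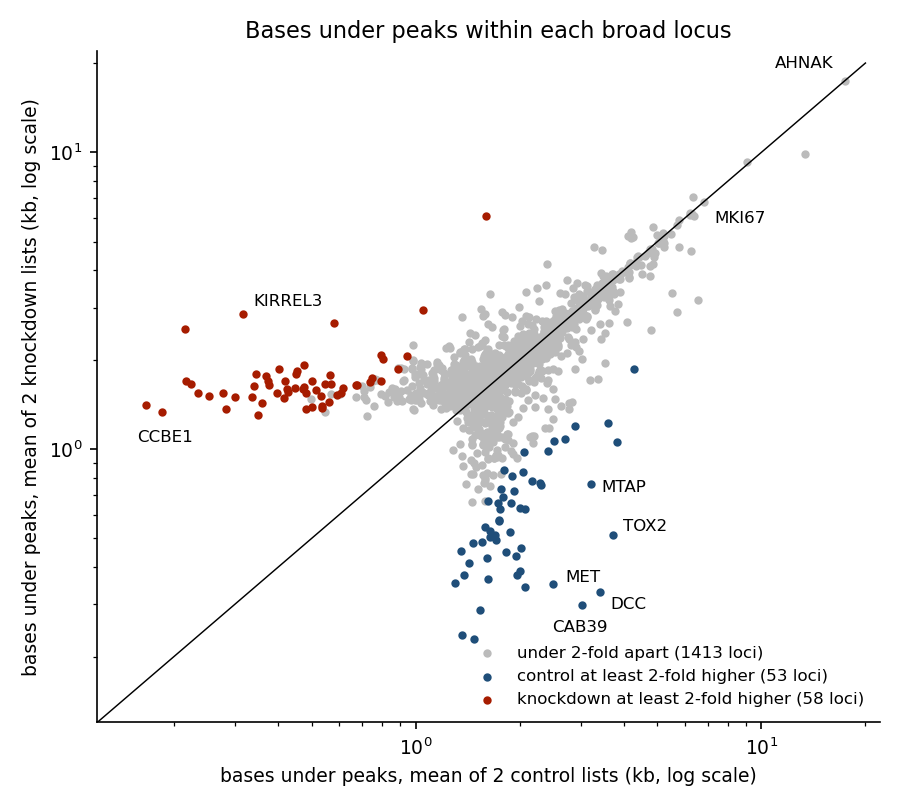
Bases under peaks (kb, log scales) in each of the 1524 broad loci with a peak in every list, as the mean of the 2 control lists (horizontal) and of the 2 knockdown lists (vertical); the line marks equal values. Blue points (53) and red points (58) have all values of 1 group at least 2-fold above those of the other, and AHNAK and MKI67 lie on the line.

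The widest locus was in AHNAK, which encodes a giant scaffold protein from one exceptionally long coding exon (chromosome 11, 62516467 to 62534198, minus strand). Its widest peak measured 9219 and 8831 bp in control replicates 1 and 2 and 16913 and 9203 bp in knockdown replicates 1 and 2, so knockdown replicate 1 stood apart. Bases under peaks were nevertheless 17606, 17382, 17515 and 17400, nearly the whole locus in every library, and the folds were low at 2.63, 1.85, 2.90 and 3.30. Every library called the stretch as 2 or 3 peaks, which met at different places.

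MKI67, the gene of the proliferation marker Ki-67, had 1 peak of 6813, 6824, 6803 and 6807 bp in the 4 libraries (chromosome 10, 128102652 to 128109483, minus strand). SPEN, a large transcriptional corepressor, measured 6281, 6166, 6150 and 6148 bp on chromosome 1 (15927944 to 15934224, plus strand). TCF20, a transcriptional coregulator, measured 5714, 5705, 5714 and 5692 bp on chromosome 22 (42209662 to 42215376, minus strand). Lengths differed little between libraries; both control values lay just above both knockdown values at MKI67 and SPEN, and the groups overlapped at TCF20. ICE1, a subunit of the little elongation complex, measured 4786, 4724, 4746 and 4696 bp, and KNL1, a kinetochore scaffold, 5070, 5038, 5040 and 4536 bp. RANBP2, a nucleoporin gene, and PRR14L were the other members of this set, with smallest widths over the lists of 4816 and 4551 bp.

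Other wide loci differed between groups in how far they were joined. APC, the tumour suppressor of the Wnt pathway, had a widest peak of 6767 and 2716 bp in control and 854 and 1664 bp in knockdown (chromosome 5, 112837523 to 112844298, plus strand). The peaks there covered 6767 and 6343 bases in control and 3226 and 3146 in knockdown, in 1, 3, 7 and 5 separate calls, while the folds were 6.71, 6.46, 7.02 and 8.02. Coverage was thus lower in both knockdown lists although the folds at the summit were not. On the strand opposite GAS6, the gene of a ligand of TAM receptor kinases, a locus had a widest peak of 6543 and 4209 bp in control and 1670 and 1611 bp in knockdown (chromosome 13, 113841222 to 113847764, plus strand), and covered bases of 6543, 5951, 4645 and 4687. BOD1L1, known for protecting replication forks, had 6258, 6173, 4179 and 6399 bp, with overlapping groups.

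**Figure D4:**
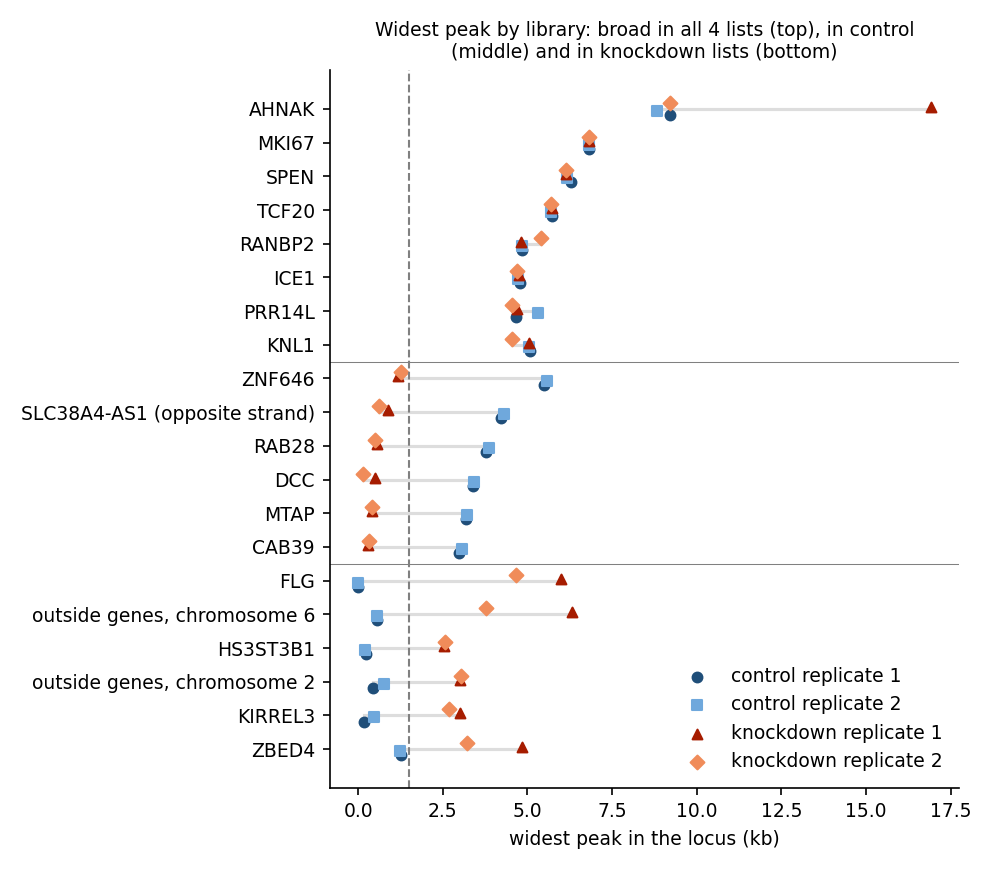
Width of the widest peak (kb) at named broad loci in each library, with 1 symbol per library and a grey bar over their range; the dashed line is 1500 bp. Loci in the top block exceed the limit in all 4 lists, those in the middle block only in control lists and those in the bottom block only in knockdown lists; the widest single value is AHNAK in knockdown replicate 1.

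Of loci broad in control lists alone, the 6 with the widest gap between groups were in or opposite ZNF646, SLC38A4-AS1, RAB28, DCC, MTAP and CAB39. ZNF646, a zinc finger gene, had 5502 and 5565 bp in control and 1179 and 1250 bp in knockdown (chromosome 16, 31076221 to 31081785, plus strand). RAB28, a small GTPase gene, had 3786 and 3862 bp against 547 and 492 bp (chromosome 4, 13451200 to 13455061, minus strand), with folds of 9.46 and 7.58 in control and 4.60 and 5.63 in knockdown. Here both the width and the listed fold were lower in the knockdown lists, although folds of different libraries may not share a scale.

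DCC, the netrin-1 receptor gene, had a single peak of 3398 and 3420 bp in control and of 504 and 154 bp in knockdown (chromosome 18, 52636526 to 52639945, plus strand). Its folds were 10.04 and 8.40 in control and 3.46 and 3.63 in knockdown. The locus lay 298974 bp inside a gene of 1195703 bp. CAB39, which encodes a scaffold of the LKB1 kinase, had 2987 and 3052 bp against 286 and 310 bp (chromosome 2, 230802126 to 230805185, plus strand). MTAP, a methionine salvage enzyme gene, had 3196 and 3227 bp against 398 and 395 bp. Its folds were 3.96 and 3.78 in control and 4.37 and 4.55 in knockdown, so the narrower calls did not have lower listed folds.

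Among the other loci at least 2-fold higher in control was one in MET, the receptor of hepatocyte growth factor, named after its values were seen. It was covered over 2500 and 2500 bases in control and 428 and 274 in knockdown (chromosome 7, 116748416 to 116750915). TOX2, a high-mobility-group factor gene, had 3429 and 4014 bases against 521 and 506, and NES, which encodes the filament protein nestin, 2041 and 1990 against 514 and 416. BRCA2, a gene of homologous recombination, had 2900 and 2880 bases in control and 967 and 1426 in knockdown (chromosome 13, 32336319 to 32339222, plus strand). All 4 of these loci had peaks in every list.

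Loci broad in knockdown lists alone were led by FLG, which encodes filaggrin of the outer epidermis. FLG had 0 and 0 bp in control and 5983 and 4661 bp in knockdown, with folds of 8.49 and 8.47 (chromosome 1, 152307925 to 152313907, minus strand). No control peak was listed anywhere in that locus, and the lists do not tell whether its RNA was present in control cells. KIRREL3, a synaptic adhesion gene, had 179 and 455 bp in control and 3013 and 2693 bp in knockdown (chromosome 11, 126787338 to 126790352, minus strand), and 2 further broad loci with more bases in knockdown. ZBED4, a zinc finger gene derived from a transposase, had 1251 and 1237 bp against 4848 and 3220 bp.

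A locus compatible with HS3ST3B1, a heparan sulfate sulfotransferase gene, and the noncoding MGC12916 had 216 and 215 bp in control and 2533 and 2562 bp in knockdown (chromosome 17, 14303125 to 14305686, plus strand). Further loci with at least 2-fold more bases in knockdown, named after their values were seen, included NUAK1, an AMPK-related kinase gene, with 318 and 373 bases against 1791 and 1792. LATS2, a Hippo pathway kinase gene, had 246 and 590 against 1647 and 1757, and CDC73, a subunit of the Paf1 elongation complex, 675 and 461 against 1564 and 1755. In each of these, both knockdown values exceeded both control values, by the rule that chose them.

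Few loci had a peak in 1 group alone, and all are named here. Besides FLG, the knockdown-only loci were in KIRREL3, VOPP1, SLC7A1, INO80 and POMGNT2. SLC7A1, the cationic amino acid transporter gene, had 1332 and 1587 bp with folds of 8.18 and 7.59. The INO80 locus, in the gene of a chromatin remodelling ATPase, had its summit 518 bp from the gene end and measured 1552 and 1481 bp, and the POMGNT2 locus 488 bp from the gene end measured 1511 and 1370 bp.

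The control-only loci were in SEPTIN7P13, PIBF1, CDCP1, MYH15, PCDH1 and SEMA3A and on the strand opposite ZBTB45. PIBF1, a centrosomal protein gene, had 1858 and 1874 bp in control with folds of 5.76 and 5.01. CDCP1, a transmembrane glycoprotein gene, had 1075 and 1767 bp with folds of 7.14 and 9.39. SEPTIN7P13 is a transcribed pseudogene that shares sequence with its parent gene, so its 1700 and 1965 bp cannot be assigned with certainty. PIBF1 also had a broad locus at another position with more bases in knockdown, 661 and 571 in control against 1613 and 1602 (chromosome 13, 72851201 to 72852813).

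By the summit of its strongest peak, 1288 of the 1552 broad loci (83.0%) lay in the span of a single RefSeq gene of the right strand, against 84.5% of all loci. A further 80 were compatible with several genes, 15 (0.966%, against 2.75% of all loci) lay opposite a gene only, and 169 (10.9%, against 8.38%) lay outside gene spans. Of those in a single gene, 1158 were in protein-coding genes (89.9%, against 91.2%), 105 in lncRNA genes (8.15%, against 7.31%) and 25 in transcribed pseudogenes. The tables used here hold gene spans and starts without exons, so whether a locus is exonic, intronic or in a UTR was not analysed, and a width can include intron.

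In genes of known strand, 1031 broad loci could be placed along the gene. The summit was within the first 500 bp of the gene at 2.62% of them, against 5.32% of all loci, in the last 2000 bp at 12.3%, against 11.6%, and in the interior at 85.1%, against 83.1%. The median position was 64.0% of the gene from its start, against 58.1%, in genes whose median span was 68.5 kb in both sets. Broad loci thus had a lower share at gene starts and a later median position, with no test made. The width rule bears on the share at gene starts. With a summit near the middle of at least 1500 bp, a peak reaches the first 500 bp mainly where it begins before the gene. An annotated gene end was passed by 8 (0.776%), against 0.179% of all loci. A wider locus passes a gene end more easily, so the shares over all loci are a background and not a matched comparison.

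Genes with textbook examples of very long exons made up the densest list. Of 38 such genes with any peak, 34 (89.5%) had a broad locus, against 1280 of 12313 genes with a peak (10.4%). They held 59 broad loci with a median widest peak of 2591 bp, and 35 of these were broad in all 4 lists, 6 in both control lists alone and 3 in both knockdown lists alone. MAP1A, TET1, CENPE and ARID1B had peaks and no broad locus. This list was composed with knowledge of genes likely to carry wide peaks and is a description of them.

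**Figure D5:**
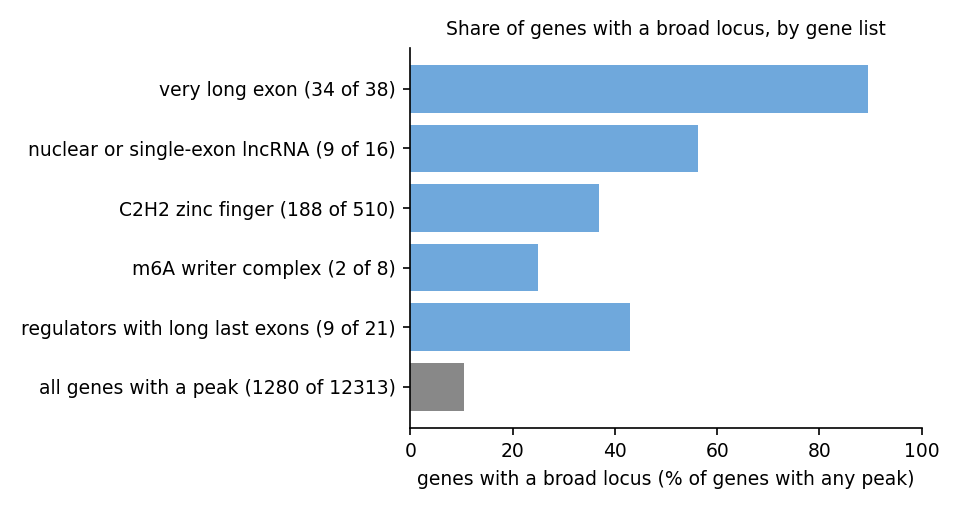
Share of genes with at least 1 broad locus (horizontal axis, percent of genes that have any peak), for each gene list and for all genes, with the counts beside each name. Genes of the very long exon list reach 89.5%, C2H2 zinc finger genes 36.9% and all genes 10.4%.

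CENPF, a kinetochore and mitosis gene, had 2 broad loci of near constant width, the first with 3421, 3420, 3404 and 3413 bp in control replicates 1 and 2 and knockdown replicates 1 and 2. FAT1, an atypical cadherin gene, had 4126, 4124, 4122 and 4122 bp at one locus and 3346, 3374, 3392 and 3379 bp at another. ASXL1, a polycomb-associated chromatin gene, had 3038, 3044, 3020 and 3021 bp. Widths in these genes, which were named after their values were seen, hardly differed between libraries whose peaks had been called separately.

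Other genes of the list, also named after their values were seen, differed in how much was joined. RESF1, a regulator of retroelement silencing, had widest peaks of 2386 and 2704 bp in control and 5268 and 5277 bp in knockdown, over nearly the same covered bases (4976, 5013, 5268 and 5277). AHNAK2, a paralogue of AHNAK, went the other way with 5779 and 5756 bp in control and 1607 and 2440 bp in knockdown, and covered bases of 5779, 5756, 4699 and 4896. TET3, a DNA demethylase gene, had 877 and 857 bp in control and 2160 and 2171 bp in knockdown at its first locus. The groups of widths did not overlap in any of these, but the genes were named with these values known, so this is a description only.

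C2H2 zinc finger genes, whose repeated fingers are usually encoded in a single long last exon, were taken by symbol (ZNF with digits, ZBTB and ZSCAN). The list therefore includes pseudogenes such as ZNF37BP, and symbols that share a locus, such as ZNF559 and ZNF559-ZNF177, are counted apart. It held 199 broad loci in 188 of 510 genes with a peak (36.9%). Of these loci, 97 were broad in all 4 lists, 23 in both control lists alone and 17 in both knockdown lists alone. Among broad loci placed along a gene of known strand, 168 (16.3%) were in such genes, against 3.21% of all loci so placed, and 83 of the 168 (49.4%) were broad in all 4 lists, against 34.8% of all broad loci. Many of these genes are near-identical copies, and the sources used here do not say how the authors treated reads that match several places.

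After ZNF646, the widest loci of the family were in ZBTB38, a methyl-CpG-binding factor gene, with 5462, 5507, 4303 and 4264 bp, and in ZNF518A, with 5213, 5220, 2789 and 4916 bp. Both were broad in every list, and in both genes each control value exceeded each knockdown value.

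Of 16 nuclear or single-exon lncRNA genes with a peak, 9 had a broad locus, 11 loci in all. MALAT1, an abundant nuclear speckle RNA, had 2123, 2098, 2121 and 2056 bp with folds of 1.42, 1.28, 1.58 and 1.36, the lowest of all broad loci in 3 of the 4 lists. NEAT1, the RNA scaffold of paraspeckles and named after its values were seen, had 1239 and 961 bp in control and 1560 and 1565 bp in knockdown. MIR31HG had 3047 and 3176 bp in control and 4226 and 2985 bp in knockdown, and TUG1 1810, 2651, 2701 and 2055 bp. The groups overlapped for MIR31HG and TUG1, and did not for NEAT1.

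Of the 8 genes of the m6A writer complex, all had a peak and 2 had a broad locus. RBM15, an adaptor with RNA recognition motifs, had 3042, 3090, 3103 and 3035 bp (chromosome 1, 110339394 to 110342497, plus strand). Its paralogue RBM15B had 2205 and 2676 bp in control and 1294 and 2438 bp in knockdown. Both sets of widths overlapped between groups. METTL3, the targeted gene, and METTL14, WTAP, VIRMA, ZC3H13 and CBLL1 had no broad locus, so broad loci give no check of the knockdown.

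Of 21 regulators with long last exons that had a peak, 9 had a broad locus, and 5 of the 9 loci were broad in all 4 lists. HIVEP2, a large zinc finger factor gene, had 3415, 2211, 4274 and 1915 bp, HIVEP1 of the same family 2069, 3374, 2064 and 1990 bp, and IRS1, an insulin receptor adaptor gene, 3182, 2178, 1579 and 2526 bp. Named after their values were seen, ZEB1, a factor of epithelial-mesenchymal transition, had 656 and 745 bp in control and 1845 and 1743 bp in knockdown, and SOX4 1219 and 1114 bp against 1641 and 1537 bp. NRIP1, a nuclear receptor corepressor gene, had 1215 and 2492 bp in control and 1113 and 1088 bp in knockdown. Groups did not overlap in these 3: ZEB1 and SOX4 were broad in knockdown alone and NRIP1 in 1 control list alone. All 3, NRIP1 included, were named with their values known, so this is no result about the list.

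The labelled cell type was checked on which marker genes held any peak, since peak lists do not measure RNA levels. Of 8 melanocyte markers 1 had a peak (MITF, the lineage transcription factor), and of 6 markers of dedifferentiated melanoma all 6 had one. Keratinocyte, fibroblast and leukocyte markers had a peak in 1 of 5, 1 of 5 and 0 of 5 genes, the first 2 being KRT10 and LUM. EGFR, a growth factor receptor gene of the dedifferentiated list, held 2 broad loci: one with 1027 and 1403 bp in control and 2983 and 2253 bp in knockdown, the other with 1596, 1575, 1577 and 1573 bp.

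Most genes had 1 broad locus. Of 10970 genes with a locus of their own, 1112 (10.1%) had a broad one: 979 had 1, 101 had 2 and 32 had 3 or more. DST, LINC02476 and SLC38A4-AS1 had 5 each, and MACF1 and LOC107986770 had 4 each. DST and MACF1 encode spectraplakins, which link cytoskeletal filaments.

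All 4 loci of MACF1 were broad in every list, the widest with 4248, 3786, 4212 and 4290 bp. DST had 3 of 5 loci broad in every list, while the one at 56780507 to 56785356 on chromosome 6 had 4836 and 3478 bp in control and 1449 bp in both knockdown lists. SLC38A4-AS1, an lncRNA gene, moved in one direction at all 5 of its loci: none was broad in a knockdown list. Its last locus had 1570 and 1843 bp in control and 492 and 493 bp in knockdown (chromosome 12, 46639954 to 46641796, plus strand), and on the strand opposite the gene a further locus had 4228 and 4310 bp against 883 and 614 bp. Loci of 1 gene share their transcript and are not independent.

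The lncRNA gene LOC107986770 on chromosome 7 held a locus of 9484 bp (13486030 to 13495513, plus strand). Its widest peak measured 4497, 4507, 4488 and 9480 bp, and the covered bases were 9246, 8910, 9101 and 9480. As at AHNAK, the widest call came from 1 knockdown library, here replicate 2, over nearly the same covered bases.

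The 169 loci outside gene spans lay at a median of 44781 bp from the nearest gene span, 41 of them within 10 kb and 48 over 100 kb away. Of these loci 44 (26.0%) were broad in all 4 lists, against 37.0% of the loci in single protein-coding genes, 28 in both control lists alone and 20 in both knockdown lists alone. Nothing in the tables names what is transcribed there.

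The longest of them was on the minus strand of chromosome 22 (10716903 to 10730362), 11730 bp from LOC105379418. A single call of 13460 bp in control replicate 1 and one of 13055 bp in control replicate 2 covered it, while the widest peaks in the knockdown lists were 2275 and 1344 bp in 15 and 18 separate calls. The covered bases were 13460 and 13295 in control and 10245 and 9471 in knockdown. In the other direction, a locus on the minus strand of chromosome 6 (78497323 to 78503649), 196502 bp from the nearest gene, had 557 and 563 bp in control and 6327 and 3771 bp in knockdown, with covered bases of 1524, 1664, 6327 and 5911. A plus-strand locus on chromosome 2 (81135754 to 81138815) likewise had 448 and 754 bp in control and 3008 and 3025 bp in knockdown. On the minus strand of chromosome 5, the locus from 85508950 to 85513923 had the opposite order, with 2938 and 4974 bp in control and 680 and 731 bp in knockdown. In these 3 both lists of 1 group and neither list of the other held a broad peak. Widths of such loci cannot overlap between groups, so the separation is no separate result. On the plus strand of that chromosome, the locus from 28845164 to 28850521 was broad in every list with 2592, 5322, 2462 and 2565 bp. A locus on chromosome 4 (23523283 to 23530544, plus strand) was broad in every list with 3014, 5555, 5557 and 3929 bp.

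Some broad loci faced each other on the 2 strands. Of the 1552 loci, 7 (0.451%) overlapped a broad locus of the opposite strand, all of them at AHNAK, MALAT1 and PPP1R15A. No such share over all merged loci is at hand, so whether this is few cannot be said. Of 2 plus-strand loci opposite AHNAK, the longer had 4271, 5991, 4109 and 2777 bp, and the other, from 62517986 to 62519881, had 1896, 1186, 649 and 1019 bp and was broad in control replicate 1 alone. The minus-strand locus opposite MALAT1 had 1754, 1747, 1754 and 1732 bp with folds of 2.02, 2.12, 2.48 and 2.65. At PPP1R15A, a stress response gene, the sense locus had 1726, 1712, 1700 and 1635 bp, and the opposite strand had 476 and 474 bp in control and 1683 and 1341 bp in knockdown.

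Mitochondrial RNA gave 2 broad loci on the plus strand of its chromosome (M). From 7643 to 9787 the widest peak measured 2145 and 1418 bp in control and 338 and 327 bp in knockdown, and from 12294 to 15087 it measured 2794 and 2773 bp in control and 1462 and 760 bp in knockdown. Folds were 2.07, 2.62, 1.79 and 1.76 at the first and 3.37, 2.74, 2.16 and 1.87 at the second. Both loci were wider and had higher folds in both control lists. Mitochondrial transcripts were thus present in these chromatin-associated libraries.

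Along the chromosomes, broad loci were most frequent relative to all loci on chromosome 19 among the nuclear chromosomes. It held 130 broad loci, 8.38% of the broad loci and 4.87% of all loci, or 4.02 broad loci per 100 loci. Chromosome 18 had 3.33 and chromosome 13 had 3.21 per 100, and chromosomes 14 and 12 had the fewest apart from Y, with 1.75 and 1.82.

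At the width limit, the 3 peaks with the highest fold among those of exactly 1500 bp were in PRMT6, CCDC71 and NOL8, with folds of 13.4, 8.04 and 6.10. Just outside, the 3 with the highest fold among peaks of 1499 bp were in IFIT1, in a stretch compatible with KIAA1328 and LOC124904287, and in TBC1D25, with folds of 9.60, 5.49 and 5.47. In the 100 bp above the limit there were 581 peaks and in the 100 bp below it 726, so the limit cuts a continuous range of widths.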

How the data were processed

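The authors deposited a separate list of called peaks for each library, with no pooling of replicates. Forward and reverse strands were called apart, as peak names in the deposited files show; knockdown peaks carry a knockout prefix there. MACS2 2.2.7.1, HISAT2 2.1.0, Bowtie2 2.4.2, SAMtools, Trim Galore 0.6.6 and hg38 are named, without roles, per the submitters' processing notes. The deposited fold enrichment at the summit is a ratio, and the sources used here do not give how input or spike-in RNA entered it. The deposited p-values and q-values are −log10 values, and the deposited score was not used. Read depth is unknown.

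Width was end minus start. Broad peaks were merged by strand, and bases under any peak of each list were counted inside each merged locus; coordinates are 1-based hg38. The summit with the highest fold placed each locus in 39650 gene spans of RefSeq (GRCh38.p14), of which 27302 (68.9%) had a strand from the gene-start table; the others accepted both strands. Groups came from the sample titles. Group values were compared by exact permutation of 2 against 2 libraries; shares have 95% Wilson intervals. Named loci were the 10 widest, the 8 widest by their smallest width in all lists, the 6 with the largest group difference each way, up to 4 present in 1 group each way, up to 5 outside genes, up to 6 genes with several loci (1 of them is not reported here) and up to 3 per gene list; others are marked as named after their values were seen, or belong to counts of few loci or to the printed sequences. The members and lists were chosen with earlier results of these data known. The scripts (Python 3.11.15, pandas 2.3.3, numpy 2.4.6, scipy 1.17.1) were tested on simulated peak lists.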

Additional observations from a re-analysis of the deposited data

How the results depend on the processing

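With the limit at 2000 bp, 718 loci remained and 98.9% had a peak in all 4 lists, 0.139% were control-only and 13.2% were broad in control alone; the differences in broad peaks and in covered bases became −13.5 peaks and −27.2 kb. With 1000 bp there were 3752 loci, with 94.5% in all 4 lists, 1.55% control-only and 1.87% knockdown-only, and the same-group excess in covered bases was 4.17 points. Keeping peaks with −log10 q of at least 20 gave 93.7%, 1.36% and 1.68% for these shares. A fold of at least 4 gave 73.7%, 2.45% and 5.33%, with 14.9% broad in knockdown alone and an excess of 6.42 points. Joining peaks only at a reciprocal overlap of 50% gave 60.4%, 9.26% and 10.4%. Fewer peaks enter at a minimum −log10 q or fold by construction; for the other settings the cause was not tested. Leaving out 1 library gave 98.5% to 98.96% in all lists left and 0.207% to 1.04% control-only. It gave 15.0% to 18.9% broad in control alone and 14.8% to 21.7% broad in knockdown alone. A group with 1 list left needs a broad peak, or none, in that list only. These shares are therefore not the measure used with 4 lists, and the looser definition alone can raise them. The covered difference was −36.1 to 110.6 kb, negative without either knockdown library. Its loci were chosen anew from the lists left, which tilts them to the group with more lists. The difference in broad peaks was 5.5 without control replicate 1 and 106.5 without control replicate 2. Whether same-numbered replicates were prepared together is not in the labels. Their deviations in covered bases had a correlation of 0.0112 over 1552 loci, which cannot show that they were unpaired. With the replicate block the differences stayed 56 peaks, 0.275 points and 21.2 kb (exact sign-flip p = 1, 0.5 and 1). Each list gives a width but no read depth, so precision at a single locus is unknown.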

Other observations

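The broad loci with at least 2-fold more bases under peaks in control were unevenly spread over chromosomes, a pattern noticed in these data and not tested. Of the 53 broad loci at least 2-fold higher in control, 11 were on chromosome 9, which held 67 of the 1524 broad loci with a peak in every list, and none of the 58 loci at least 2-fold higher in knockdown was there. Of these 11 loci, 10 lay below 40 Mb, among them MTAP with 3196 and 3227 covered bases in control and 917 and 610 in knockdown, GLIS3, a zinc finger factor gene, with 1177 and 1550 against 260 and 212, and GNE, a sialic acid synthesis gene, with 1583 and 1705 against 341 and 670. Outside genes, the locus at 22367693 to 22369765 had 2070 and 2073 covered bases in control and 170 and 515 in knockdown. Several of the chromosome 9 loci were neighbours on the plus strand. Those at 22369898 to 22372616 and 22408316 to 22409935 lay close to the one just given. Others stood at 31855744 to 31857542, 31989482 to 31993150 and 32099337 to 32101910. Neighbouring loci are not independent, so their number overstates how many separate places differed. Over all 1078 merged loci of chromosome 9 with a peak in every list the same rule gave 26 with control higher and 34 with knockdown higher, and the median ratio of covered bases over its broad loci was 1.00. Broad loci on chromosome 11, also noticed in these data and not tested, showed the opposite count, with 1 higher in control and 9 higher in knockdown among 74. Over all 1221 merged loci of chromosome 11 with a peak in every list, 24 were higher in control and 36 in knockdown. Some of the 9 shared a gene, KIRREL3 or OR51B5, and are not separate places.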
